A study of Arabidopsis thaliana with 12 samples.

Results

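The genes described here encode proteins of the cytosolic ribosome of Arabidopsis thaliana. They were taken from a list of 54 loci, 35 for the large subunit (RPL and RPP genes) and 19 for the small subunit (RPS genes), and 45 of the 54 had a row in the deposited values, among 21461 probe sets that were tested. These 45 are 30 genes of the large subunit and 15 of the small subunit. A symbol was found for 24 of them in the RefSeq gene table, and the other 21 are given by locus code and subunit alone. The 9 listed loci without a row (AT2G18020, AT4G36130, AT1G33120, AT1G33140 and AT1G70600 of the large subunit, AT2G31610, AT3G53870, AT3G11940 and AT2G37270 of the small subunit) were not analysed here.

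RNA from young leaves of the Columbia accession was measured on 12 Affymetrix ATH1 arrays, which carry 25S and 5S ribosomal RNA controls beside the gene probe sets. Plants grew in peat pellets at 22 °C with 10 h of light. In moderate drought (mDr) watering stopped 30 days after sowing and soil moisture was then held at 30% of field capacity, with leaves taken on day 1 and on day 10. In progressive drought (pDr) watering stopped 35 days after sowing, and sampling took place when the plants first wilted. The 6 groups, with 2 arrays each, were mDr day 1 and its well-watered control, mDr day 10 and its well-watered control, and pDr and its well-watered control. Each array carried RNA of 5 pooled plants, and the labels call the 2 pools of a group biological replicates. The 2 arrays per group limit the precision of every value.

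The cytosolic ribosome translates nuclear-encoded messenger RNAs. Its large subunit holds the peptidyl transferase centre and the exit tunnel, its small subunit decodes the message, and both are built of ribosomal RNA and a set of proteins. In Arabidopsis most of these proteins are encoded by small families of closely related genes, whose transcripts are abundant in growing tissue. The TOR kinase pathway ties ribosome production to growth and nutrition, and its S6 kinases phosphorylate the small-subunit protein RPS6.

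The deposited values are log2 expression values from RMA, a method that corrects background, normalises arrays and joins the probes of a set into 1 value. The 3 samplings had been normalised separately, so each drought group was compared with the control of its own sampling and levels were not compared across samplings. Replicate arrays of a group correlated across all probe sets at 0.964 to 0.997, lowest in the pDr arrays. Most of the ribosomal protein genes lay near the top of the scale: 35 to 40 of the 45 were above the 90th percentile of their array. The 5 dimmer genes were RPL10B, RPL16A, RPSAb, AT2G40010 and AT5G39850, and AT2G40010 had the lowest level in pDr, at 3.74 and 3.99 against 4.76 and 4.82 in its control. Signals near the top of the array scale can be compressed, and closely related gene copies can share probe signal; the size of either effect was not tested.

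Transcripts of the cytosolic ribosomal proteins were lower in leaves at first wilting than in the well-watered control. In pDr against its control 36 of the 45 genes fell and 0 rose (limma, Benjamini-Hochberg adjusted p under 0.05 over all probe sets), beside 27% of all probe sets called in either direction and 14.5% called as lower. The median log2 change was −0.76 over the 45 genes, against 0.00 over all probe sets. For the large subunit the median was −0.93 (range −1.71 to −0.19, 30 of 30 genes below 0), with 26 of 30 genes called. For the small subunit it was −0.59 (range −1.66 to 0.25, 13 of 15 genes below 0), with 10 of 15 called. With the 4 arrays of this comparison alone in the fit 16 of the 45 genes were called, and the share of all probe sets called in that fit was not counted. In moderate drought 0 of 45 genes passed the test on either day, and the medians were −0.17 on day 1 and −0.12 on day 10.

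**Figure D1:**
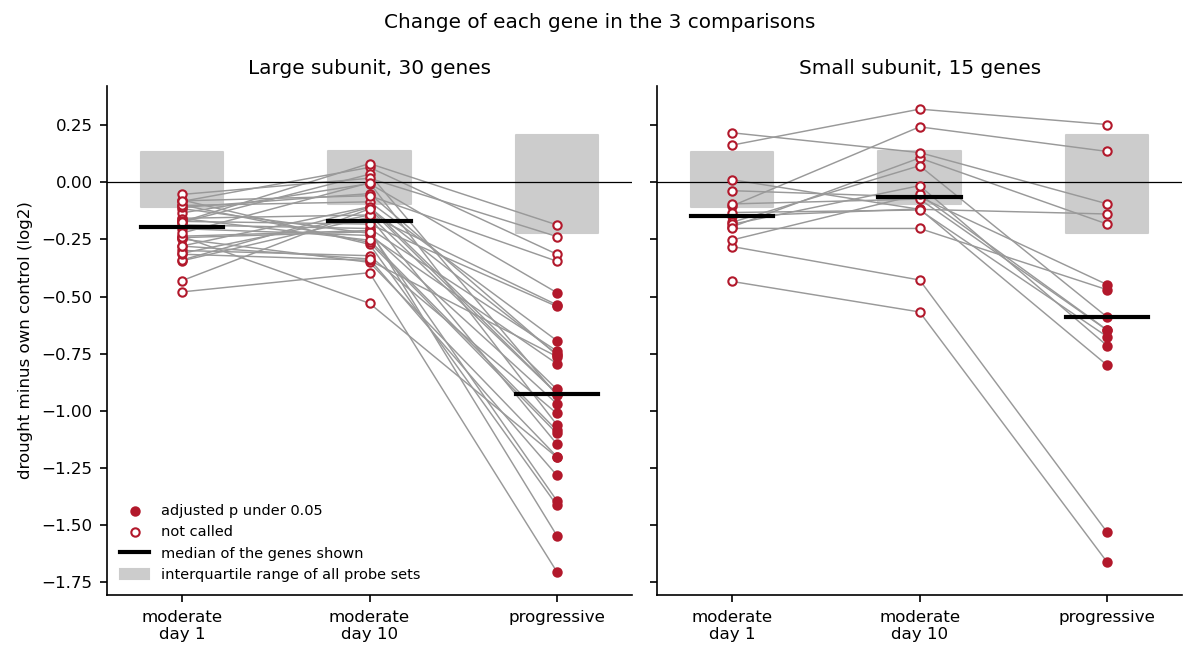
Log2 change of each gene, drought minus its own control (y axis), in moderate drought on day 1 and day 10 and in progressive drought (x axis), for 30 large-subunit genes (left) and 15 small-subunit genes (right). Grey lines join the values of a gene, filled points passed an adjusted p under 0.05 in limma, black bars are medians and grey boxes span the interquartile range of all probe sets; the medians in progressive drought were −0.93 and −0.59, and no point was called in moderate drought.

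Among bright probe sets changes were also common. Among the 10% of probe sets with the highest levels, with the 45 genes left out, 55.1% of 2106 were called in pDr and 32.6% were called as lower, and their median change was −0.11. In the ribosomal protein genes 80% were called as lower. The 4 arrays of the comparison did not overlap, with both pDr arrays lower, for 41 of the 45 genes, beside 27.5% of all probe sets. A log2 change below −1 was measured for 12 large-subunit and 2 small-subunit genes, beside 7.48% of all probe sets. Fewer cells of a type and less RNA per cell cannot be told apart in these leaf samples.

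Of the large-subunit genes RPL24A (probe set AT2G36620_at) had the most negative change. Its level was 7.995 and 8.01 in pDr, against 9.58 and 9.84 in the control, and it fell by 1.71 ± 0.15 on the log2 scale (SE of the limma fit, adjusted p = 5.7e-05), a level 3.26-fold lower. The 2 pDr arrays differed by far less than either did from the control. RPL5B (probe set AT5G39740_at), 1 of 2 genes for the protein that binds 5S ribosomal RNA in the large subunit, was at 8.69 and 8.23 in pDr, against 9.79 and 9.96 in the control, a change of −1.42 ± 0.18 (adjusted p = 5.6e-04 in limma). RPL23AA (probe set AT2G39460_at), whose protein lies at the mouth of the exit tunnel, was at 8.47 and 8.48 in pDr, against 9.74 and 10.00 in the control, and its partner gene RPL23AB (AT3G55280) at 7.68 and 7.93 in pDr, against 8.95 and 9.08 in the control. Both RPL23A genes fell, by 1.39 ± 0.16 and 1.20 ± 0.16 (adjusted p = 3.0e-04 and 6.2e-04 in limma).

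AT2G01250 and AT1G26880 were also among the 6 large-subunit genes with the most negative change. AT2G01250 was at 9.12 and 9.09 in pDr, against 10.62 and 10.68 in the control, and fell by 1.55 ± 0.12 (adjusted p = 3.8e-05 in limma). AT1G26880 was at 8.12 and 8.13 in pDr, against 9.34 and 9.48 in the control, and fell by 1.28 ± 0.16 (adjusted p = 4.4e-04 in limma). For both loci the control arrays lay at least a full log2 unit above the pDr arrays. The remaining called large-subunit genes ranged from −1.20 (AT1G18540) to −0.48 (AT2G37190). Among those with a symbol, RPL18 was at −1.09, RPL27AB at −1.06, PGY1, a gene first found by its effect on leaf polarity, at −1.01, RPL16A at −0.76 and BBC1 at −0.74.

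At the other end, 4 large-subunit genes did not pass. RPL3A (AT1G43170), whose protein reaches towards the peptidyl transferase centre, was at 10.78 and 10.76 in pDr, against 10.95 and 11.22 in the control, a change of −0.31 ± 0.13 that did not pass (adjusted p = 0.108 in limma). The embryo-lethality gene emb2386 (AT1G02780) was at 10.78 and 10.47 in pDr, against 10.75 and 10.98 in the control, and the arrays overlapped (−0.24 ± 0.15, adjusted p = 0.323 in limma). AT3G49910 was at −0.35 ± 0.13 (adjusted p = 0.0798 in limma) and AT3G53740 at −0.19 ± 0.19 (adjusted p = 0.588 in limma). RPL3A, emb2386 and AT3G49910 lay at mean percentiles of 98.9 to 99.2 over the 12 arrays, and AT3G53740 at 97.2. Some called genes were about as bright: RPL10A (−0.75) lay at 98.9 and BBC1 (−0.74) at 98.4. AT2G37190 (9.84 and 9.64 in pDr, against 10.14 and 10.30 in the control) and AT3G09630 (9.65 and 9.36 in pDr, against 9.78 and 10.30 in the control) fell by 0.48 ± 0.15 and 0.54 ± 0.17, close to the threshold (adjusted p = 0.0371 and 0.0452 in limma). For AT3G09630 the change without control replicate 2 was −0.28 (adjusted p = 0.269), and without pDr replicate 2 it was −0.40 (adjusted p = 0.190). For AT2G37190 the change without control replicate 2 was −0.40 (adjusted p = 0.175), and without pDr replicate 2 it was −0.38 (adjusted p = 0.150).

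**Figure D2:**
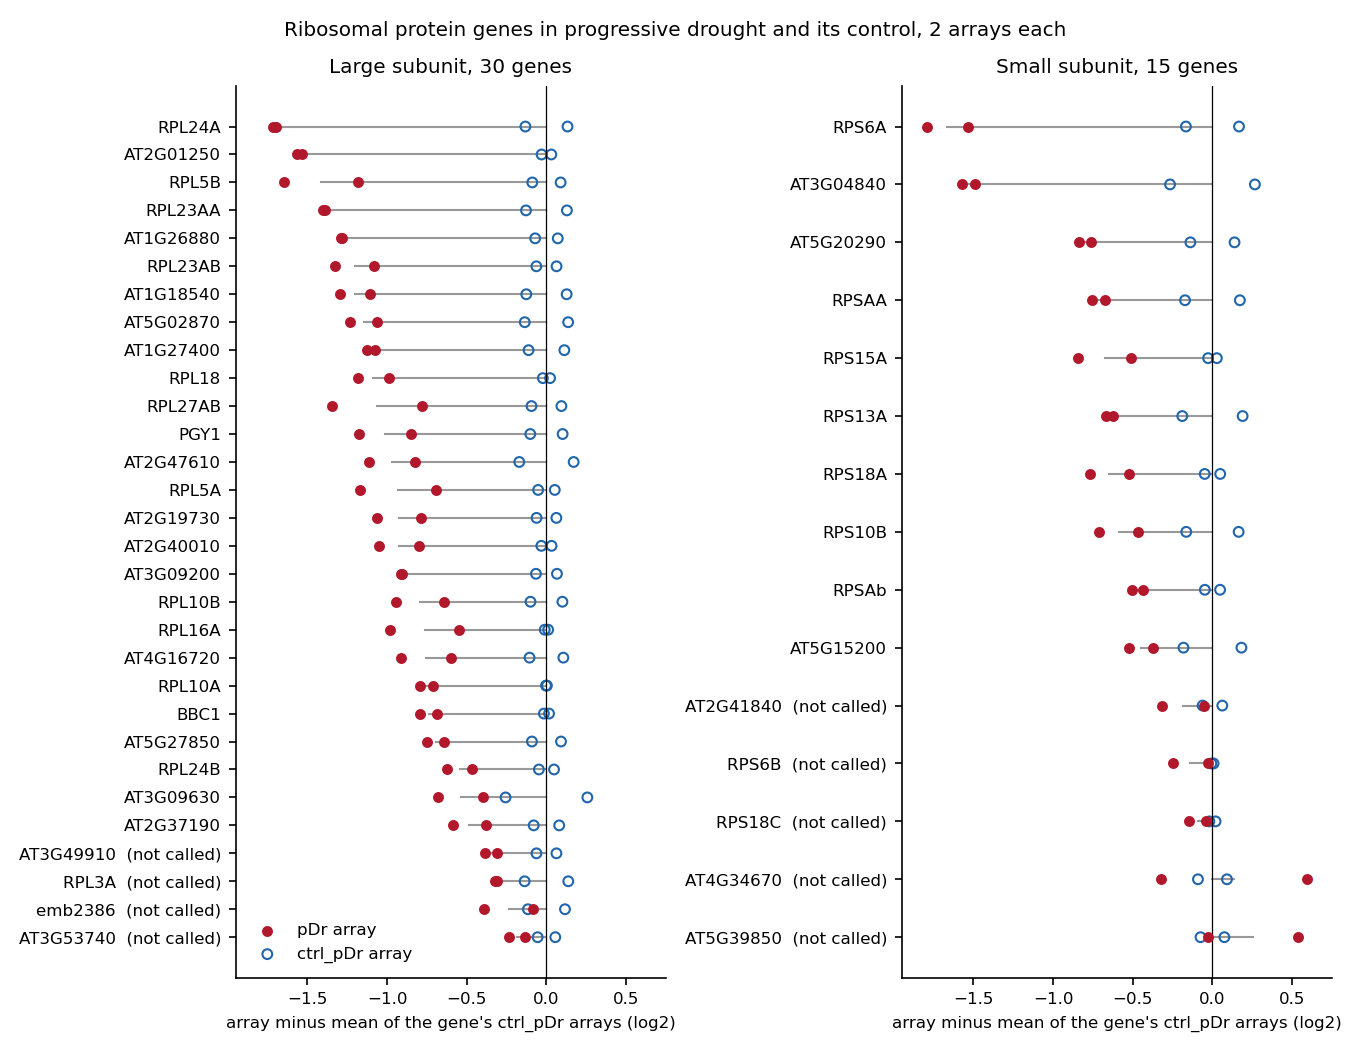
Log2 value of each of the 4 arrays of the progressive comparison minus the mean of the 2 control arrays of the same gene (x axis), for every gene (rows), with pDr arrays filled and control arrays open; grey lines run from the pDr mean to the control mean. Genes marked as not called did not pass an adjusted p under 0.05 in limma: 4 of 30 in the large subunit and 5 of 15 in the small subunit.

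In the small subunit a pair of genes stood far below the others. RPS6A (probe set AT4G31700_at), 1 of 2 genes for the S6 kinase substrate RPS6, was at 7.86 and 7.59 in pDr, against 9.22 and 9.56 in the control, and fell by 1.66 ± 0.17 (3.17-fold lower, adjusted p = 1.5e-04 in limma). AT3G04840 was at 8.63 and 8.55 in pDr, against 9.86 and 10.39 in the control, and fell by 1.53 ± 0.17 (2.89-fold lower, adjusted p = 2.0e-04 in limma). The next gene in order of change, AT5G20290, was at 11.21 and 11.28 in pDr, against 11.91 and 12.18 in the control, a fall of 0.80 ± 0.13 (adjusted p = 0.00181 in limma). The step between AT3G04840 and AT5G20290 was wider than the range of the next 7 genes, which all fell by between 0.72 and 0.45.

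RPSAA (AT1G72370), related to the laminin receptor precursor of animals, was at 9.63 and 9.71 in pDr, against 10.21 and 10.55 in the control, and fell by 0.72 ± 0.15 (adjusted p = 0.00737 in limma). RPS15A (AT1G07770) was at 9.92 and 10.25 in pDr, against 10.73 and 10.78 in the control, and fell by 0.68 ± 0.14 (adjusted p = 0.00618 in limma). RPS13A (AT4G00100) was at 9.40 and 9.36 in pDr, against 9.84 and 10.22 in the control, and fell by 0.65 ± 0.16 (adjusted p = 0.014 in limma). In each of these 3 genes both pDr arrays were lower than both control arrays. Without control replicate 2, RPSAA (−0.54, adjusted p = 0.0517) and RPS13A (−0.46, adjusted p = 0.093) no longer passed. AT5G15200 fell by 0.45 ± 0.14 (10.53 and 10.39 in pDr, against 10.73 and 11.09 in the control, adjusted p = 0.0461 in limma), and without control replicate 2 its change was −0.27 (adjusted p = 0.276).

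The 5 small-subunit genes that did not pass were AT5G39850, AT4G34670, RPS18C, RPS6B and AT2G41840. AT5G39850 was at 5.70 and 5.14 in pDr, against 5.09 and 5.24 in the control (0.25 ± 0.21, adjusted p = 0.460 in limma). AT4G34670 was at 10.02 and 10.94 in pDr, against 10.44 and 10.26 in the control (0.14 ± 0.24, adjusted p = 0.783 in limma). In both genes the arrays of the 2 groups overlapped, and the sign depended on the pDr array used. Without pDr replicate 1, AT4G34670 was at 0.59 (adjusted p = 0.0125), and without pDr replicate 2 at −0.32 (adjusted p = 0.118). AT5G39850 was at −0.027 (adjusted p = 0.954) without pDr replicate 1 and at 0.53 (adjusted p = 0.0799) without pDr replicate 2. AT2G41840 was at −0.18 ± 0.15 with overlapping arrays (10.46 and 10.19 in pDr, against 10.45 and 10.57 in the control, adjusted p = 0.477 in limma).

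Genes for the same protein did not always have similar changes. Of 7 pairs in which both genes carry a symbol, RPS6A and RPS6B lay furthest apart. RPS6B (probe set AT5G10360_at) was at 9.80 and 9.58 in pDr, against 9.82 and 9.83 in the control, a change of −0.14 ± 0.14 (adjusted p = 0.581 in limma), so that the changes of RPS6A and RPS6B differed by 1.52 on the log2 scale. RPL24A and RPL24B (AT3G53020) differed by 1.16. RPL24B, known for its part in re-initiation of translation after upstream reading frames, was at 9.55 and 9.39 in pDr, against 9.97 and 10.06 in the control, and fell by 0.54 ± 0.13 (adjusted p = 0.0152 in limma). RPS18A and RPS18C differed by 0.55: RPS18A was at 9.11 and 8.86 in pDr, against 9.59 and 9.68 in the control (−0.65 ± 0.21, adjusted p = 0.0458 in limma), and RPS18C at 9.93 and 10.03 in pDr, against 10.09 and 10.05 in the control (−0.094 ± 0.13, adjusted p = 0.695 in limma).

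The other pairs were closer. RPL5A was at −0.93 ± 0.16 and RPL5B at −1.42 ± 0.18, RPSAA at −0.72 ± 0.15 and RPSAb at −0.47 ± 0.08, and RPL23AA at −1.39 ± 0.16 and RPL23AB at −1.20 ± 0.16. The closest of the 7 pairs was RPL10A, for a protein that joins the large subunit late in its assembly, and RPL10B, with changes that differed by 0.04. RPL10A was at 10.33 and 10.25 in pDr, against 11.04 and 11.04 in the control (−0.75 ± 0.10, adjusted p = 5.9e-04 in limma), and RPL10B at 6.26 and 5.96 in pDr, against 6.81 and 7.01 in the control (−0.79 ± 0.13, adjusted p = 0.00191 in limma). The differences between paired genes were not tested. Another 5 listed pairs hold a locus without a symbol; their changes differed by 0.018 to 1.67, the widest being AT3G04840 and AT4G34670, further apart than the RPS6 pair, and the narrowest AT3G09200 and AT2G40010, closer than the RPL10 pair.

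**Figure D3:**
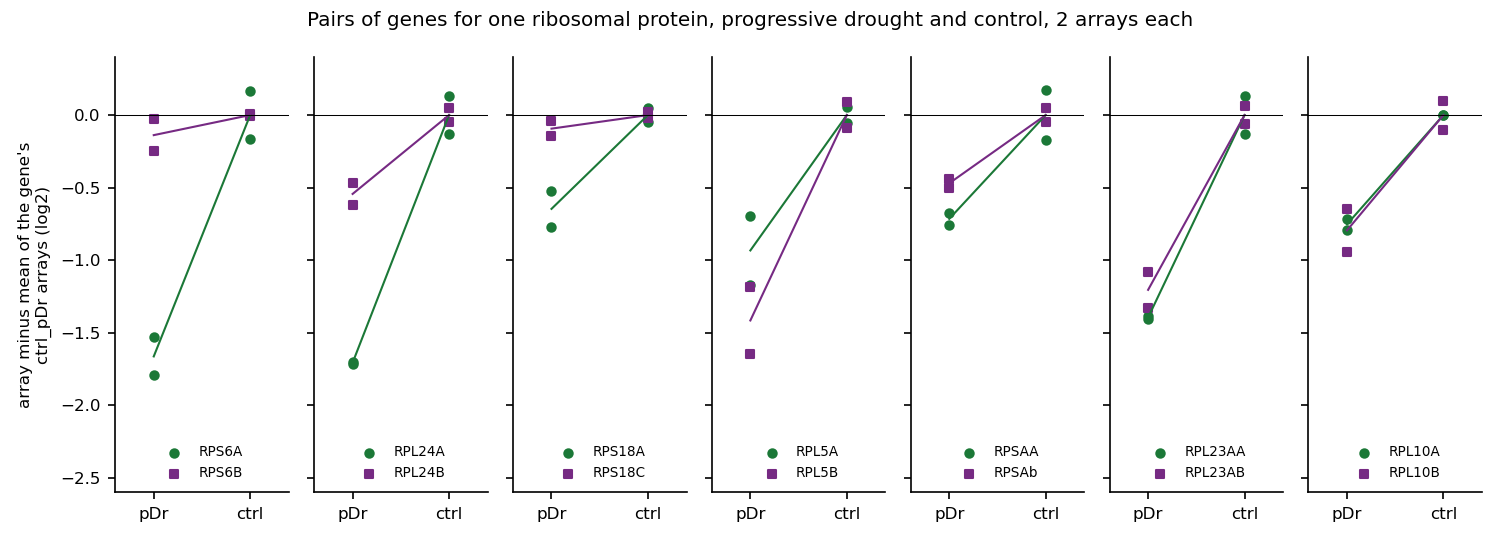
Log2 value of each array minus the mean of the control arrays of the same gene (y axis) in progressive drought (pDr, left) and its control (ctrl, right), for 7 pairs of genes that encode the same ribosomal protein, ordered by how far apart the changes of the pair lie. Points are arrays and lines join group means; the RPS6 pair differed by 1.52, the RPL24 pair by 1.16 and the RPL10 pair by 0.04.

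On day 1 of moderate drought the changes were small and mostly negative. Of the 45 genes 42 were below 0 and 3 above, 0 were called in limma (beside 0.0186% of all probe sets), and 6 had an unadjusted p under 0.05, all of them lower (beside 8.69% of all probe sets, and 3.89% with a lower value). All 30 large-subunit genes were below 0, with a median of −0.19 and a range of −0.48 to −0.05, and 12 of 15 small-subunit genes, with a median of −0.15 and a range of −0.43 to 0.22. Both mDr arrays were lower than both control arrays for 34 of the 45 genes, beside 22.9% of all probe sets. RPL24A was at 9.75 and 9.72 in mDr, against 10.30 and 10.13 in the control, a change of −0.48 (adjusted p = 0.390 in limma). RPS6A was at 9.36 and 9.16 in mDr, against 9.79 and 9.60 in the control (−0.43, adjusted p = 0.520 in limma), and RPL10A at 11.20 and 11.17 in mDr, against 11.59 and 11.46 in the control (−0.34, adjusted p = 0.370 in limma, the lowest of the 45).

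The 2 day 1 drought arrays were alike in this respect. Relative to the control mean the median of the 45 genes was −0.18 in mDr replicate 1 and −0.17 in mDr replicate 2. The highest values on day 1 were those of RPS18C, at 10.57 and 10.48 in mDr, against 10.37 and 10.24 in the control (0.22), and AT5G39850 (0.16), neither of which passed. The large-subunit median lay between −0.26 and −0.14 when any 1 array was left out, with −0.14 without control replicate 1 and −0.26 without control replicate 2.

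On day 10 of moderate drought the 2 drought pools differed, in median, more from each other than from the control. Of the 45 genes 36 were below 0, 0 were called in limma (beside 0.107% of all probe sets), and 6 had an unadjusted p under 0.05, all of them lower (beside 10.4% of all probe sets, and 4.04% with a lower value). The medians were −0.17 for the large subunit and −0.06 for the small subunit. In mDr replicate 2 the value was higher than in replicate 1 for 42 of the 45 genes, by a median of 0.37, while over all probe sets the median difference was −0.02. Against the control mean the median of the 45 genes was −0.28 in replicate 1, with 43 genes below, and 0.04 in replicate 2, with 18 below. The 2 replicates lay on different sides of the control mean for 25 of the 45 genes.

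A statement on day 10 therefore depended on the array. Without mDr replicate 1 the medians were −0.00065 for the large subunit and 0.11 for the small subunit, and without replicate 2 they were −0.33 and −0.19. Both mDr arrays were lower than both control arrays for 14 of the 45 genes, beside 18.9% of all probe sets. RPS6A was among them, at 8.57 and 8.93 in mDr, against 9.40 and 9.23 in the control (−0.57, adjusted p = 0.262 in limma), as was RPL23AB, at 8.39 and 8.89 in mDr, against 9.22 and 9.13 in the control (−0.53, adjusted p = 0.262 in limma). RPL24A was at 9.09 and 9.51 in mDr, against 9.72 and 9.67 in the control (−0.40, adjusted p = 0.381 in limma). At the other end AT5G39850 was at 6.91 and 7.31 in mDr, against 6.87 and 6.71 in the control (0.32, adjusted p = 0.694 in limma).

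**Figure D4:**
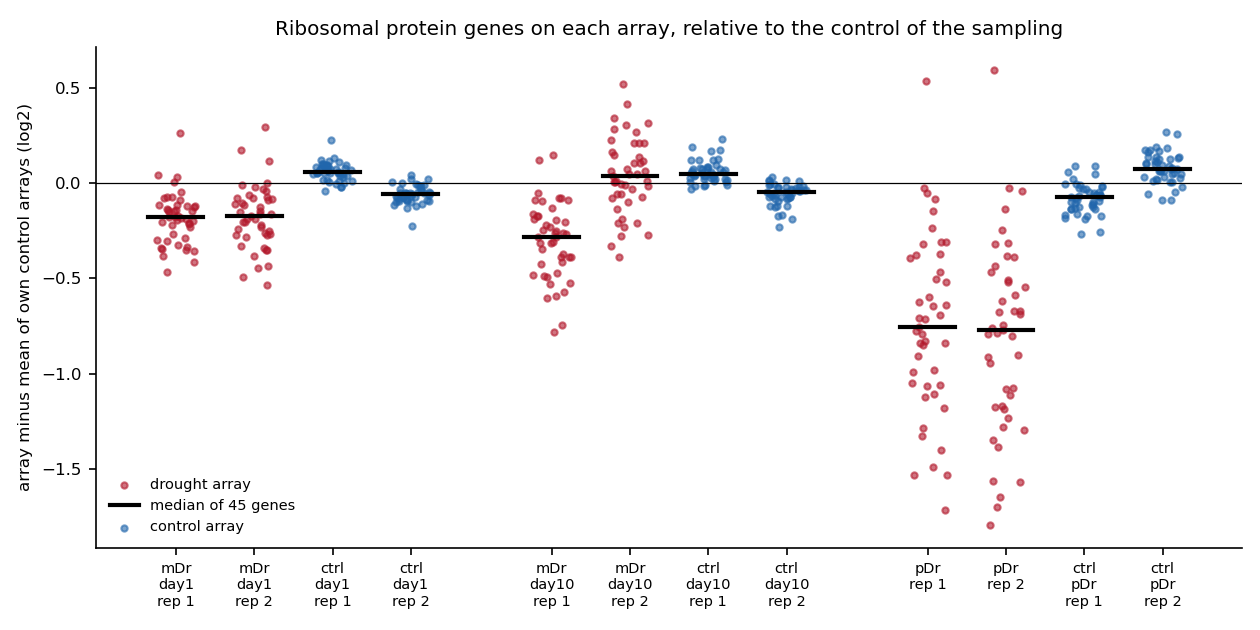
Log2 value of each of the 45 genes on each array minus the mean of the gene over the 2 control arrays of the same sampling (y axis); arrays are on the x axis, drought arrays left of the control arrays in each sampling, and black bars are medians. The medians of the pDr arrays are −0.76 and −0.77, those of the mDr day 1 arrays −0.18 and −0.17, and those of the mDr day 10 arrays −0.28 and 0.04.

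The order of the genes was partly shared between the samplings. Across the 45 genes the change in pDr and the change on day 10 of moderate drought correlated at r = 0.81 (Spearman 0.78), and the change in pDr and that on day 1 at r = 0.68 (Spearman 0.62). Each mDr day 10 array, taken alone against the control mean, had a similar value (r = 0.78 for replicate 1 and 0.72 for replicate 2), although their medians differed. These 2 values share the control mean and the pDr changes, so they are not independent of each other. Within the large subunit r was 0.68 for day 10 and 0.50 for day 1 (Spearman 0.71 and 0.43, 30 genes). Within the small subunit r was 0.91 and 0.78 (Spearman 0.73 and 0.69, 15 genes). By rank the 2 subunits were therefore close for day 10. These are descriptions across genes: the samplings share probe sets but no arrays, the genes of a sampling share its arrays, and genes are not independent replicates. The level in the pDr control and the change in pDr gave r = −0.07 (Spearman 0.19). In all, 35 of the 45 genes were below 0 in all 3 comparisons, and in 42 the pDr change was the lowest of the 3.

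Interaction contrasts in the same fit set the drought effects against each other. The pDr effect was more negative than the day 1 effect for 13 of the 45 genes (11 large-subunit, 2 small-subunit; beside 12.5% of all probe sets called and 7.26% called as more negative) and than the day 10 effect for 16 (13 large-subunit, 3 small-subunit; beside 12.3% and 7.61%). No gene was called the other way. Progressive and moderate drought differed in how water was withheld, in the day on which this began and in the state of the plants at sampling. The samplings had also been normalised separately, so the contrasts set effects from different array scales against each other. These differences cannot be told apart, and the labels give no number of treatment days for pDr. AT2G01250 had the smallest adjusted p in both contrasts, with a change of −1.55 in pDr, −0.24 on day 1 of mDr and −0.21 on day 10 of mDr; the differences were −1.31 ± 0.17 (adjusted p = 0.00216 in limma) and −1.34 ± 0.17 (adjusted p = 0.00178 in limma).

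For RPL24A the pDr effect differed by −1.23 ± 0.21 from the day 1 effect and by −1.31 ± 0.21 from the day 10 effect (adjusted p = 0.00607 and 0.00435 in limma), and for RPL23AA by −1.15 ± 0.23 and −1.18 ± 0.23 (adjusted p = 0.0129 and 0.0115). AT3G04840 differed by −1.25 ± 0.24 and −1.10 ± 0.24 (adjusted p = 0.00988 and 0.0168). RPL5B (−1.34 ± 0.26, adjusted p = 0.0115) and RPS6A (−1.23 ± 0.24, adjusted p = 0.0119) were among the 6 smallest adjusted p against day 1. RPL10A (−0.64 ± 0.14, adjusted p = 0.0186) and AT5G02870 (−0.99 ± 0.21, adjusted p = 0.0146) were among the 6 smallest against day 10. With any 1 array left out, AT2G01250 and RPL24A passed in both contrasts (highest adjusted p = 0.0162 and 0.0364 against day 1, 0.0125 and 0.0243 against day 10). Against day 1 the call was lost without control day 1 replicate 2 for AT3G04840 (adjusted p = 0.0528), RPL5B (0.0598), RPS6A (0.0610) and RPL23AA (0.0645), for RPL5B also without mDr day 1 replicate 2 (0.0570) and for RPL23AA without mDr day 1 replicate 1 (0.0527). Against day 10 it was lost without control day 10 replicate 2 for RPL23AA (adjusted p = 0.0561), AT5G02870 (0.0673), AT3G04840 (0.0710) and RPL10A (0.0824). Without mDr day 10 replicate 2 AT3G04840 (0.0602) and RPL10A (0.0568) did not pass, nor did RPL10A without pDr control replicate 2 (0.0518). The counts changed as well, and shares over all probe sets were not counted for these fits. Against day 1 the count was 8 without control day 1 replicate 1, 2 without control day 1 replicate 2, 6 without either mDr day 1 array and 7 without pDr control replicate 2. Against day 10 it was 8 without control day 10 replicate 1, 2 without control day 10 replicate 2, 5 without mDr day 10 replicate 2 and 5 without pDr control replicate 2. Between day 10 and day 1 of moderate drought 0 genes differed in limma, and 0 had an unadjusted p under 0.05 (beside 0% and 6.86% of all probe sets).

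A further 139 loci listed as cytosolic ribosomal proteins had a median of −0.75 in pDr. Of these 94 fell (beside 14.5% of all probe sets called as lower), 2 rose (beside 12.5% called as higher) and 43 did not pass. Their changes ran from −1.997 to 0.81, with an interquartile range of 0.78, against 0.60 for the 45 genes. The most negative were AT1G07070, at 4.80 and 4.82 in pDr, against 6.81 and 6.81 in the control (−1.997 ± 0.13, adjusted p = 1.6e-05 in limma), and AT3G06680, at 5.63 and 5.47 in pDr, against 7.58 and 7.50 in the control (−1.99 ± 0.15, adjusted p = 2.6e-05 in limma). The 2 that rose were RPL18AA, at 8.67 and 7.67 in pDr, against 7.47 and 7.26 in the control (0.81 ± 0.26, adjusted p = 0.0486 in limma), and AT4G02230, at 9.35 and 9.24 in pDr, against 8.83 and 8.93 in the control (0.42 ± 0.12, adjusted p = 0.027 in limma). On day 1 and day 10 of moderate drought 0 of the 139 were called in limma, with medians of −0.20 and −0.17. At an unadjusted p under 0.05 there were 23 lower and 1 higher on day 1, beside 8.69% of all probe sets (3.89% lower), and 16 lower on day 10, beside 10.4% (4.04% lower).

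Ribosomal proteins of the plastid, which serve translation inside the chloroplast and are encoded in the nucleus, were lower by more than those of the cytosol in median. All 28 measured fell in pDr (beside 14.5% of all probe sets called as lower), with a median of −1.78 and a range of −2.56 to −0.93. PRPL35 was at 6.89 and 6.77 in pDr, against 9.28 and 9.49 in the control (−2.56 ± 0.13, adjusted p = 6.4e-06 in limma), and the plastid RPL9 at 7.56 and 7.97 in pDr, against 10.22 and 10.12 in the control (−2.40 ± 0.14, adjusted p = 9.9e-06 in limma). In moderate drought the plastid medians were −0.18 on day 1 and −0.19 on day 10. In limma 0 of 28 were called on either day, beside 0.0186% and 0.107% of all probe sets. At an unadjusted p under 0.05 there were 2 lower on day 1, beside 8.69% of all probe sets (3.89% lower). On day 10 there were 5 lower, beside 10.4% (4.04% lower). The difference between plastid and cytosolic genes was not tested.

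Genes that act in building ribosomes and in translation were called about as often as all probe sets. Of 19 ribosome biogenesis factors 4 fell, 1 rose and 14 did not pass in pDr, which is 26.3% called, beside 27% of all probe sets, with a median of −0.10. FIB2, a fibrillarin that methylates ribosomal RNA in the nucleolus, was at 4.82 and 4.90 in pDr, against 6.62 and 6.79 in the control (−1.85 ± 0.12, adjusted p = 1.6e-05 in limma). NOP56, its partner in the same particles, was at 6.61 and 7.31 in pDr, against 7.90 and 8.01 in the control (−0.999 ± 0.21, adjusted p = 0.00724 in limma), and AT2G40430 rose by 0.46 ± 0.13 (adjusted p = 0.0293 in limma). Of 19 translation factors 3 fell, 1 rose and 15 did not pass, which is 21.1% called, beside 27% of all probe sets, with a median of −0.05. PAB4, a poly(A)-binding protein, fell by 1.33 ± 0.13 (7.42 and 7.50 in pDr, against 8.69 and 8.89 in the control; adjusted p = 1.1e-04 in limma), FBR12, an eIF5A gene, fell by 0.53 ± 0.17 (adjusted p = 0.044 in limma), and ELF5A-3, another eIF5A gene, rose by 0.90 ± 0.28 with uneven arrays (10.50 and 9.41 in pDr, against 9.04 and 9.07 in the control; adjusted p = 0.0429 in limma).

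In the TOR pathway and the RACK1 family 3 of 8 genes fell, 2 rose and 3 did not pass in pDr. This is 62.5% called, beside 27% of all probe sets (14.5% as lower and 12.5% as higher). The genes that fell encode RACK1, a scaffold protein bound to the small subunit: RACK1B was at 6.90 and 6.89 in pDr, against 8.97 and 8.83 in the control (−2.01 ± 0.12, adjusted p = 9.1e-06 in limma), RACK1C at 6.35 and 6.13 in pDr, against 8.06 and 8.03 in the control (−1.80 ± 0.13, adjusted p = 2.3e-05 in limma), and RACK1A fell by 0.65. S6K2, which encodes an S6 kinase, was at 6.26 and 7.49 in pDr, against 4.71 and 4.13 in the control (2.45 ± 0.38, adjusted p = 0.00141 in limma). RAPTOR1, which encodes the substrate-binding partner of TOR, was at 6.52 and 6.10 in pDr, against 5.77 and 5.88 in the control (0.48 ± 0.14, adjusted p = 0.0318 in limma).

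**Figure D5:**
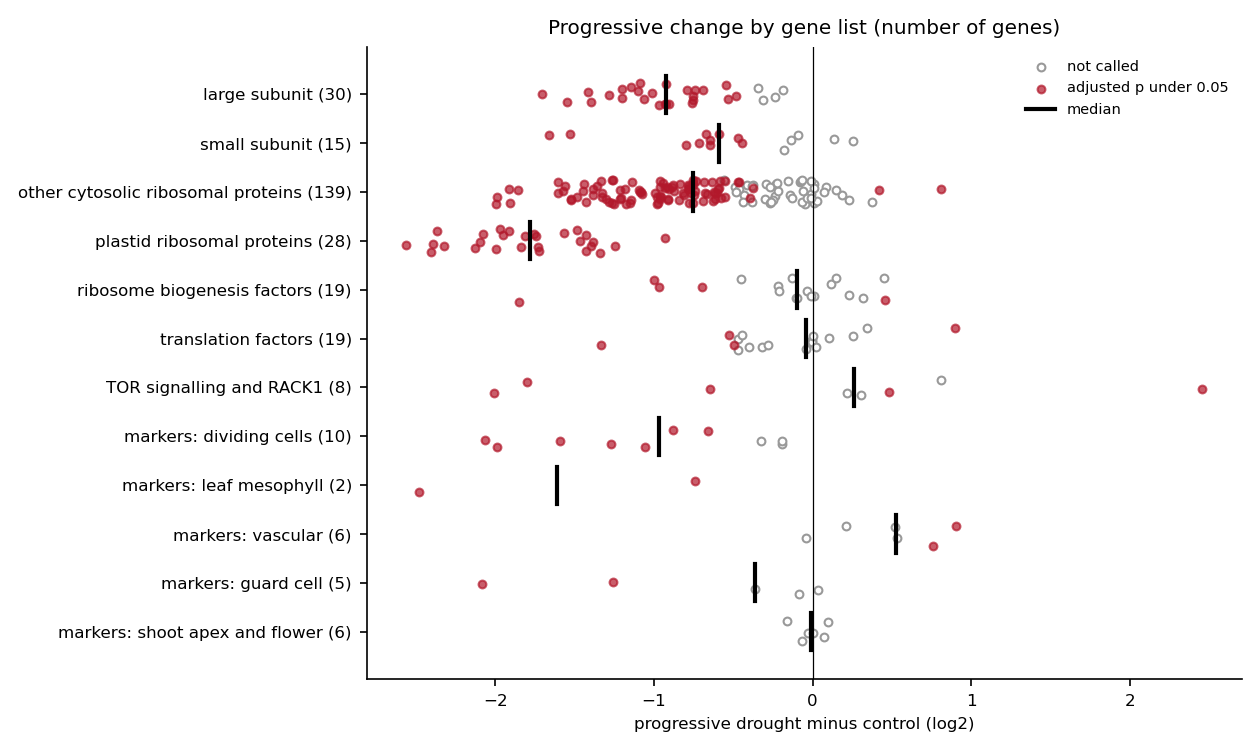
Log2 change in progressive drought minus control (x axis) of each gene in the large and small subunit and in 10 other lists (rows, number of genes in brackets); filled points passed an adjusted p under 0.05 in limma and black bars are medians. The medians are −0.93 and −0.59 for the 2 subunits, −0.75 for the other cytosolic ribosomal proteins and −1.78 for the plastid ribosomal proteins.

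Markers of cell types were read beside the 27% of all probe sets called in pDr. Of 10 genes of dividing cells 7 fell and 0 rose (70% called, median −0.97), and their summed linear level was 214 and 229.9 in pDr, against 581 and 529 in the control. KNOLLE, a syntaxin of cell division, was at 4.76 and 4.72 in pDr, against 7.25 and 6.36 in the control (−2.06 ± 0.25, adjusted p = 3.9e-04 in limma), and PCNA1, a DNA replication clamp, at 5.14 and 5.11 in pDr, against 7.03 and 7.20 in the control (−1.99 ± 0.11, adjusted p = 7.7e-06 in limma). On day 10 of moderate drought the summed level of these 10 genes was 520.1 and 580.4, against 645 and 670.4 in the control. In limma 0 of them were called, beside 0.107% of all probe sets, and 2 were lower at an unadjusted p under 0.05, beside 4.04%. Their part in the lower ribosomal protein transcripts was not tested.

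The leaf label was checked against mesophyll markers. CA1, a carbonic anhydrase, and PSAD-1, a photosystem I subunit, were both above the 95th percentile on all 12 arrays, while 5 or 6 of 6 shoot apex and flower markers lay below the array median. In pDr CA1 fell by 2.48 ± 0.17 (adjusted p = 2.1e-05 in limma) and PSAD-1 by 0.74 ± 0.12 (adjusted p = 0.00155 in limma), and the summed level of the 2 measured mesophyll markers was 4641 and 4293 in pDr, against 11554 and 13992 in the control. Of 6 vascular markers 2 rose (33.3% called), the secondary-wall cellulose synthase genes IRX1 (0.91 ± 0.15, adjusted p = 0.00184 in limma) and IRX3 (0.76 ± 0.14, adjusted p = 0.00309 in limma), with a summed level of 1255 and 781 in pDr, against 626 and 774 in the control. Of 5 guard cell markers 2 fell (40% called), AT1G22690 (−2.08 ± 0.36, adjusted p = 0.00236 in limma) and the potassium channel gene KAT1 (−1.26 ± 0.26, adjusted p = 0.00692 in limma). In all, 4 of the 5 were below 0, with a median of −0.36. Their summed level was 1335 and 1015 in pDr, against 1109 and 1323 in the control. Most of this sum came from the brightest marker on each array (log2 10.28 and 9.87 in pDr, against 9.95 and 10.13 in the control). Of the 6 apex and flower markers 0 were called (0 at an unadjusted p under 0.05), with a summed level of 85.4 and 88.1 in pDr, against 83.5 and 89.4 in the control.

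Some control probe sets of the array also differed in pDr. The 25S ribosomal RNA control was at 10.75 and 9.53 in pDr, against 8.91 and 8.88 in the control. The 5S control was at 6.48 and 7.50 in pDr, against 5.44 and 5.92 in the control. The actin control nearest the 3' end was at 4.95 and 3.41 in pDr, against 5.72 and 5.73 in the control. The actin control nearest the 5' end was at 4.15 and 4.46 in pDr, against 4.31 and 4.48 in the control. For ubiquitin the 3' minus 5' difference was −0.70 and −0.20 in pDr, against −0.31 and −0.58 in the control, and the arrays overlapped. On day 1 the actin control nearest the 3' end was at 5.85 and 5.78 in mDr, against 7.09 and 6.93 in the control. The 25S control was at 7.44 and 7.55 in mDr day 1, against 7.99 and 7.89 in the control. On day 10 it was at 8.71 and 8.96 in mDr, against 9.37 and 9.66 in the control. The part of these shifts in the ribosomal protein values was not tested.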

How the data were processed

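RNA of young leaves was measured on 12 arrays in 6 groups of 2. The deposited log2 values are the authors' RMA expression values, made with RMA and the affy package per the submitters' processing notes (no versions stated there). Probes were grouped by locus, on a genome build that those notes do not state. The authors normalised each sampling apart: sorted values differed by 0.0501 to 0.0691 log2 units on average within a sampling, against 0.696 over all arrays.

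Drought minus its own control was fitted with limma 3.58.1 in R 4.3.3 (lmFit, eBayes without trend) over 6 group means, with degrees of freedom of 6 (residual) and 2.78 (prior). All limma tests were two-sided, adjusted by Benjamini-Hochberg over 21461 probe sets, with 56 control probe sets left out, and called at an adjusted p under 0.05. The fit was run on simulated data with independent normal noise, of the same size in all groups for a given probe set. That run could not test unequal spread between groups or genes that move together on an array. Errors after ± are standard errors of the fit. P-values measure the spread between pools.

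The genes and lists were chosen with earlier results of these data known. Named were the 6 lowest and the 6 highest changes of each subunit in pDr, the 6 smallest adjusted p in each interaction, the 3 furthest and the closest gene pair (here among pairs with 2 symbols) and, per list, up to 2 called genes in each direction; other genes named were chosen after their values were seen. One locus of the list of other cytosolic proteins was left out, as the RefSeq table (TAIR10.1) names it otherwise. The labels do not say whether replicate numbers pair the arrays, and the main fit did not pair them. Replicate differences of the drought and control arms correlated at 0.03 on day 1, 0.06 on day 10 and −0.49 in pDr. Whether a shared handling step lies behind the last value was not tested. Sequences were not used here, so promoter motifs and protein identity were not analysed here. Alternatives were another normalisation, centring, filter, weights, a trend, a block, fewer arrays and each array left out.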

Additional observations from a re-analysis of the deposited data

Results flagged for a closer look

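Interaction contrasts in limma called 13 of the 45 ribosomal protein genes between progressive drought and day 1, beside 12.5% of all probe sets (7.26% as more negative). Between progressive drought and day 10 they called 16, beside 12.3% (7.61% as more negative). These counts were not stable: fewer genes passed with the replicate number as a block, and they moved with the arrays used. Between progressive drought and day 1 the differences were −1.31 for AT2G01250, −1.23 for RPL24A, −1.25 for AT3G04840, −1.34 for RPL5B, −1.23 for RPS6A and −1.15 for RPL23AA. Between progressive drought and day 10 they were −1.34 for AT2G01250, −1.31 for RPL24A, −1.18 for RPL23AA, −0.99 for AT5G02870, −1.10 for AT3G04840 and −0.64 for RPL10A.

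A signal outside the gene probe sets was the 25S ribosomal RNA control of the array, which was 1.24 log2 units higher in progressive drought than in its control; the difference was 0.63 without pDr replicate 1 and 1.85 without pDr replicate 2.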

How the results depend on the processing

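In progressive drought the count of called genes was 36 as reported, 16 with the 4 arrays of that comparison alone, 28 with array weights, 31 with cyclic loess, 31 with each array centred on its brightest 10% (chosen after seeing the data), 30 with the replicate number as a block and 27 to 36 with 1 array left out. All called genes were lower, except 1 higher gene (AT4G34670) without pDr replicate 1. Shares over all probe sets were counted for the main fit alone (27% called in pDr, 14.5% as lower). The counts of the alternatives therefore have no such share beside them. The fit on 4 arrays has fewer residual degrees of freedom by construction. The main fit shares a spread per gene over the 6 groups, so its errors can be too small where replicates differ more. Over all probe sets the root mean square SD of replicates was 0.123 in the day 1 control and 0.153 in mDr day 1. It was 0.314 in the pDr control and 0.369 in pDr. Over the 45 genes it was 0.159 in the pDr control, 0.199 in pDr and 0.267 in mDr day 10. The part of this in the counts was not tested. With the replicate block 2 genes were called in each of the contrasts of progressive drought against day 1 and day 10, where 13 and 16 were reported; with 1 array left out the counts ran from 2 to 17 and from 2 to 24. The block cannot move a median, because each sampling holds a drought and a control array of each replicate number. The labels do not say whether these numbers pair the arrays. The large-subunit median on day 1 ran from −0.26 to −0.14 with 1 array left out. Under cyclic loess 4 genes that had not passed turned to a positive change in progressive drought: AT2G41840 (0.0428), emb2386 (0.0188), RPS18C (0.0952) and RPS6B (0.0258). RPS18C was at 0.00394 when centred on the brightest 10%. With 1 array left out, AT4G34670 ran from −0.32 to 0.59 and AT5G39850 from −0.0266 to 0.53. AT2G37190, AT3G09630 and AT5G15200 lost their calls under cyclic loess, array weights, a trend, the block and the 4 arrays alone. The causes were not tested. Counts of 0 in moderate drought held under every alternative run. Whether dim genes such as AT2G40010 exceed background could not be read from RMA values.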
